A study of Mus musculus with 12 samples.

Results

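The 6 h response of macrophages to Kdo2-lipid A (KLA) was taken from the 3 arrays labelled as KLA-treated and the 3 labelled as untreated, which are 6 of the 12 arrays of the series, and it is described across all genes on the array. KLA is a chemically defined lipopolysaccharide, the lipid A anchor of the Gram-negative outer membrane with its Kdo sugars, and it was given at 50 ng/ml. The macrophages were grown with M-CSF (20 ng/ml) from the femur marrow of Balb/c mice, and all groups were kept overnight without M-CSF before treatment. The remaining 6 arrays were 3 of cells given KLA plus human beta-defensin 3 (hBD3, an antimicrobial peptide) and 3 of cells given hBD3 alone, and the labels describe 3 biological replicates in each group. The titles of KLA replicates 2 and 3 carry the word HBD3, although their treatment label is KLA alone. For all 30 genes with the largest rise and all 30 with the largest fall, every KLA array, replicates 2 and 3 included, lay farther from the untreated arrays than every array of KLA plus hBD3 did. These genes were ranked on the same KLA arrays, so this describes the arrays and does not settle the titles.

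KLA is recognised by Toll-like receptor 4 (TLR4) together with MD-2 and CD14. TLR4 signals through the adaptor MyD88 from the cell surface and through TRIF from endosomes, and these arms lead to NF-kB, MAP kinases and interferon regulatory factors. In macrophages the outcome is a wave of cytokine, chemokine and feedback genes, together with a loss of transcripts of the resting cell. Signals are log2 of the quantile-normalized intensity of each probe, and a change is the KLA mean minus the untreated mean on that scale. A gene was read from its brightest probe and called at a Benjamini-Hochberg adjusted p under 0.05 in limma, a linear model fitted across all probes, and adjusted p below is from that fit.

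The cells carried macrophage transcripts in both groups. The lysozyme gene Lyz2 had signals of 14.27, 14.55 and 14.58 with KLA and 13.98, 14.42 and 14.04 in untreated cells, and the myeloid transcription factor gene Spi1 had 10.75, 11.12 and 11.10 with KLA and 10.25, 10.92 and 10.91 in untreated cells. Both overlapped between the groups and neither was called (adjusted p = 0.115 for Lyz2 and 0.405 for Spi1), although Lyz2 was called without untreated replicate 2 (adjusted p = 0.0142). The change of Lyz2 was 0.32 for its brightest probe and -0.18 for the mean of its detected probes, also not called. Other macrophage markers fell, among them Csf1r, C1qa, C1qb and C1qc, whose values are given below. Of 17 measured macrophage markers 16 counted as detected, 2 were called higher and 7 lower, and the mean log2 signal over the list was 9.77 to 9.96 in KLA arrays and 10.24 to 10.44 in untreated arrays. Markers of other cells were mostly undetected in both groups, namely 9 of 12 for neutrophils, 8 of 12 for dendritic cells, 7 of 9 for T and NK cells, 6 of 7 for B cells, 7 of 14 for stromal cells, 3 of 5 for erythroid cells and 8 of 8 for mast cells and basophils. Exceptions were called nevertheless. The actin-bundling gene Fscn1 (3.22 ± 0.42, SE) and Batf3 (1.04 ± 0.15), which stand on the dendritic cell list, the calprotectin gene S100a8 (1.44 ± 0.27) and the cathelicidin gene Camp (at least 2.13-fold), both on the neutrophil list, and Pdgfrb of the stromal list (at least 2.23-fold) rose, while Csf3r (-0.81 ± 0.18), Vim (-1.19 ± 0.27) the T cell marker Cd8b1 (-1.91 ± 0.21) and the transferrin receptor gene Tfrc of the erythroid list (-1.58 ± 0.21) fell. Batf3 and S100a8 were not called with median centring. The mean log2 signal over the whole dendritic cell list was 6.32 to 6.56 in KLA arrays and 5.97 to 6.06 in untreated arrays, and that over the neutrophil list was 6.34 to 6.57 in KLA arrays and 6.22 to 6.29 in untreated arrays. It was 6.25 to 6.41 in KLA arrays and 6.46 to 6.55 in untreated arrays for the T and NK cell list, and 6.66 to 6.82 in KLA arrays and 6.93 to 7.03 in untreated arrays for the erythroid list. Their part in the results was not tested. In bulk RNA, fewer cells of a type and less RNA per cell cannot be told apart.

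Promoter sequences are shown for the 3 genes with a window that matched the NF-kB consensus among the 30 with the largest rise, and for the gene with the largest fall. Each is the RefSeq window of build GRCm38.p6 that runs from 250 bases before the transcription start to 50 bases after it, written in the direction of the gene. Capitals mark matches to the consensus on either strand. Cxcl2 and Cxcl1 encode neutrophil-attracting chemokines, Ccrl2 a receptor that binds the chemoattractant chemerin without signalling, and Cx3cr1 the receptor of fractalkine. The windows lie at chr5:90903649-90903948 (plus strand) for Cxcl2, chr5:90890995-90891294 (plus strand) for Cxcl1, chr9:111057469-111057768 (minus strand) for Ccrl2 and chr9:120068247-120068546 (minus strand) for Cx3cr1.
Cxcl2: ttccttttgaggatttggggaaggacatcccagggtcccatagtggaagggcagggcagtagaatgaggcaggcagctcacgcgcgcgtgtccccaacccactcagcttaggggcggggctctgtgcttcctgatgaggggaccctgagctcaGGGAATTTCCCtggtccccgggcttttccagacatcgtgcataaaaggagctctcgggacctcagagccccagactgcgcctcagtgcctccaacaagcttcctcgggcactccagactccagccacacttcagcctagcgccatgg
Cxcl1: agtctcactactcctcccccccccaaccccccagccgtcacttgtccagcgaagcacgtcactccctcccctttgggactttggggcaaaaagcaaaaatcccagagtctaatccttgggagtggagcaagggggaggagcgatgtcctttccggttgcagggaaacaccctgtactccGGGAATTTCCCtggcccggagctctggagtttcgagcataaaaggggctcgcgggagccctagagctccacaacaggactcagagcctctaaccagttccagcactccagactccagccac
Ccrl2: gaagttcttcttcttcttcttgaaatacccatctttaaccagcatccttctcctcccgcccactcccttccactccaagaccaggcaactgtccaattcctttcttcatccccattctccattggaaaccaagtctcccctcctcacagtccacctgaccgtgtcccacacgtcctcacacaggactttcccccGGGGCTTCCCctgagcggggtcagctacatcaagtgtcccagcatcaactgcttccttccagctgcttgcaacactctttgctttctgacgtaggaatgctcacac
Cx3cr1: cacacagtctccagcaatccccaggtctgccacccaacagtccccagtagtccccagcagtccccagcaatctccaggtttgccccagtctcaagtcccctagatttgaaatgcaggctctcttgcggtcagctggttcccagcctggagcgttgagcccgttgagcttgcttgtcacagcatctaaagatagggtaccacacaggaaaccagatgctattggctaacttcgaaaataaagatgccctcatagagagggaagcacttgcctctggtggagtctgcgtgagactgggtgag

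In Cxcl2 and Cxcl1 the capitals cover 2 overlapping matches, the first starting 97 bases before the transcription start of Cxcl2 and 71 bases before that of Cxcl1. The single match in Ccrl2 starts 56 bases before the start, and the window of Cx3cr1 holds none. A window was given for 23 of the 30 genes with the largest rise, and for 3 of these 23 it held the consensus, as did 4.51% of all 32851 windows. Among called genes that were at least 2-fold higher, 52 of 482 with a window (10.8%) held the consensus, against 34 of 517 at least 2-fold lower (6.58%). Both sets were drawn from detected genes, of which 6.06% held it, as did 5.68% of all measured genes. The interferon-stimulated response element, a pair of GAAA blocks with 2 free bases between them, stood in a window of 8.30% of the higher genes and 2.90% of the lower genes, against 4.13% of detected genes and 3.99% of all measured genes. For the cyclic AMP response element TGACGTCA the shares were 5.81% of higher and 1.35% of lower genes, against 3.80% of detected genes and 2.70% of all. The AP-1 motif TGANTCA stood in 9.75% of higher and 8.51% of lower genes, against 6.09% of detected genes and 8.18% of all. The E-box CACGTG stood in 11.2% of higher and 12.8% of lower genes, against 12.7% of detected genes and 9.50% of all. For the serum response factor motif, CC and GG around A or T bases, the shares were 2.28% and 1.35%, against 1.63% and 1.67%. Both strands were searched. A stricter form of the NF-kB motif, GGG and TTTCC with 2 free bases between them, overlaps the consensus and stood in 3.73% of higher and 2.71% of lower genes, against 1.94% of detected genes and 1.79% of all. A match is a description of the letters in a short window, not of binding, and genes with several starts had several windows.

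The response was broad. Of 45281 probes 6717 were called (14.8%), 3095 of them higher and 3622 lower, and of 19057 genes 1848 were called higher (9.70%) and 2203 lower (11.6%). A gene counted as detected where its probe was above background, at a detection p under 0.01, in all 3 arrays of either group. Of 8059 detected genes 47.1% were called, and the signals of the groups did not overlap in 26.2% (KLA above untreated) and 31.5% (KLA below untreated). The largest changes were rises. Among called detected genes, 603 rose and 633 fell by at least 1 on the log2 scale, 169 rose and 91 fell by at least 2, 58 rose and 13 fell by at least 3, and 25 rose and 2 fell by at least 4. A rise of at least 5 was measured for 11 genes and a fall of that size for 0. Calls were made at all levels of signal, with 17.7% higher and 21.6% lower in the dimmest of 4 equal bins of detected genes and 22.4% higher and 30.6% lower in the brightest.

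**Figure D1:**
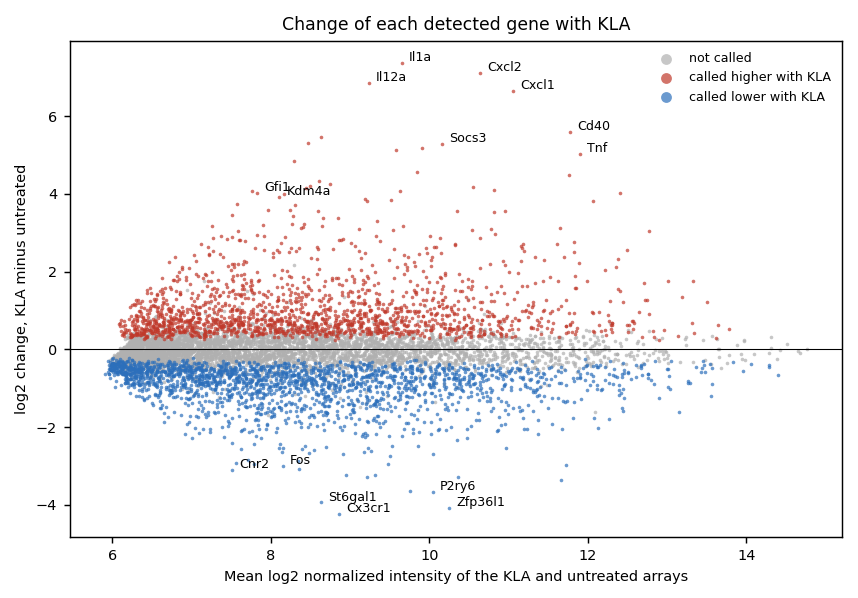
Change of each of 8059 detected genes (log2, KLA minus untreated, vertical axis) against its mean log2 normalized intensity in the 6 arrays (horizontal axis). Red points were called higher with KLA, blue points lower and grey points were not called. Rises reach 7.36 (Il1a) and falls reach -4.24 (Cx3cr1), and both directions hold genes at all signal levels.

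Before normalization KLA arrays were dimmer. Their mean intensity was 185 to 230 with KLA, against 260 to 365 in untreated cells, and 12363 to 13571 probes were detected with KLA, against 14610 to 15629 in untreated cells. Quantile normalization removes this difference, and the median change of detected genes was then -0.08. With median centring in its place that median was -0.57, and the split of called probes moved to 1274 higher and 7235 lower, against 3095 higher and 3622 lower after quantile normalization. The source of the difference in brightness was not tested, so counts of list members are given below with those under median centring in brackets. The counts in brackets stand beside 1274 probes higher and 7235 lower of 45281, not beside the shares after quantile normalization. Changes of less than about the shift in the median have no settled direction. In the same way 98 genes were detected in 3 of 3 arrays with KLA and 0 of 3 untreated, and 472 in 0 of 3 with KLA and 3 of 3 untreated. Of these, 97 of the 98 were called higher and 294 of the 472 lower. The genes were selected on detection in these same arrays, which favours such calls. At a detection p under 0.05 the numbers detected in 1 group only were 104 with KLA and 359 in untreated cells. The counts of list members below stand beside 9.70% of all measured genes called higher and 11.6% called lower.

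**Figure D2:**
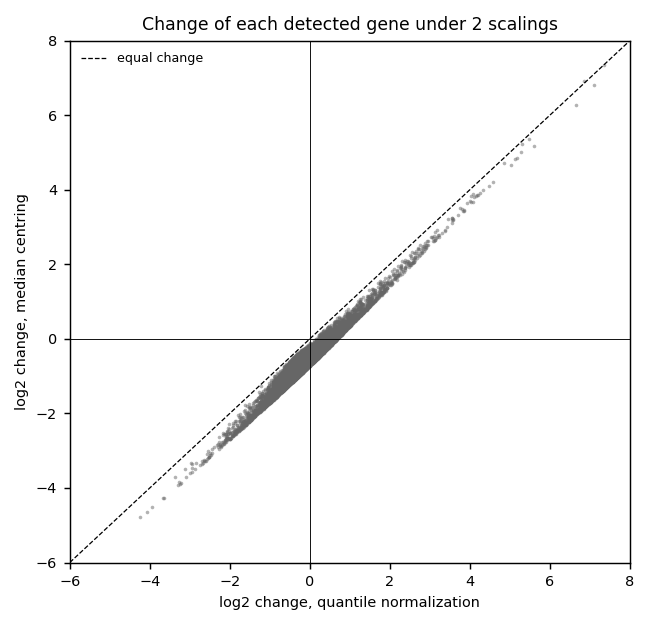
Change of each detected gene under quantile normalization (horizontal axis, log2, KLA minus untreated) and under median centring of the signals (vertical axis). Most points lie below the dashed line of equal change, and the median over genes was -0.57 with median centring and -0.08 with quantile normalization.

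The largest rises included genes of secreted signals. Il1a, an alarm cytokine of the interleukin-1 family, had signals of 14.03, 13.55 and 12.42 with KLA and 5.95, 5.96 and 5.99 in untreated cells, where no array detected it. The groups were far apart, with KLA replicate 3 the lowest of the KLA arrays, and the rise of Il1a was at least 151-fold (adjusted p = 1.17e-05). Bounds of this kind raise each value of an undetected group to 6.10 (untreated) or 6.34 (KLA) where it is below, which is the highest, over the arrays of that group, of the lowest signal of a detected probe. Cxcl2 measured 14.32, 14.17 and 14.07 with KLA and 6.93, 7.55 and 6.77 in untreated cells, a rise of 7.11 ± 0.73. Cxcl1 measured 14.44, 14.21 and 14.49 with KLA and 7.47, 7.89 and 7.84 in untreated cells (6.65 ± 0.75). Neither gene overlapped between the groups, and their KLA values stood close to 14.84, the top of the normalized scale.

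Il12a, whose product is the p35 chain shared by interleukin-12 and interleukin-35, measured 12.74, 12.29 and 12.97 with KLA, against 5.69, 5.95 and 5.76 in untreated cells, below detection (at least 94.9-fold, adjusted p = 3.22e-07). Il27, a chain of the related cytokine interleukin-27, measured 11.75, 10.98 and 11.39 with KLA and 5.96, 5.79 and 5.94 in untreated cells (at least 38.8-fold). Both were thus gained in all 3 KLA arrays. Tnf measured 14.39, 14.42 and 14.44 with KLA, near the top of the scale, against 9.43, 9.46 and 9.25 in untreated cells (5.04 ± 0.50). Interleukin-1 beta, Il1b, measured 13.98, 14.06 and 13.95 with KLA and 9.29, 9.65 and 9.60 in untreated cells (4.48 ± 0.48). Both started from a clear untreated signal.

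The standard error (SE) comes from all 12 arrays. Among the hBD3 arrays, replicate 1 was the highest for 25 of the 30 genes with the largest rise. The same was not counted over all detected genes, so it is not read as particular to these rises. Cxcl2 had a signal of 10.49 in that array and 8.05 and 6.35 in the other hBD3 arrays, and Tnf had 11.12 there and 9.31 and 8.21 in the others. In a fit of the 6 KLA and untreated arrays alone the SE of Cxcl2 was 0.19 and that of Tnf was 0.08, and the median SE of the 30 rises was 0.18, where it was 0.27 with 12 arrays. For the 30 falls the median SE was 0.15 with 6 arrays and 0.16 with 12. The part of hBD3 replicate 1 in these errors was not tested on its own.

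Several of the other large rises were of cell surface and enzyme genes. Cd40, the co-stimulatory receptor for T cell help, measured 14.55, 14.50 and 14.67 with KLA and 9.60, 8.74 and 8.58 in untreated cells (5.60 ± 0.53), so its KLA values also stood near the top of the scale. Edn1, the precursor of the vasoconstrictor endothelin-1, measured 11.51, 10.80 and 11.07 with KLA, against 5.57, 5.97 and 5.93 in untreated cells, below detection (at least 32.6-fold). Il4i1, a secreted amino acid oxidase, measured 12.65, 12.12 and 12.71 with KLA and 7.45, 7.39 and 7.12 in untreated cells (5.17 ± 0.32). No array of one group reached the other in any of these. Rasgrp1, an activator of Ras, rose by 4.33 ± 0.14 and Hcar2, the receptor for nicotinic acid and ketone bodies, by 4.57 ± 0.17. Gfi1, a transcriptional repressor, had the smallest adjusted p of all rises, with 9.76, 9.79 and 9.99 with KLA and 5.66, 5.93 and 5.85 in untreated cells (at least 13.4-fold, adjusted p = 6.05e-09). Shisa3 had no detected signal in untreated cells and was at least 13.1-fold higher. In both sets of 30 genes with the largest change, all 30 showed no overlap between KLA and untreated arrays. They were ranked on the difference between these same arrays, so the ranking itself favours this. Over all detected genes, 26.2% had no overlap with KLA above and 31.5% had none with KLA below.

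**Figure D3:**
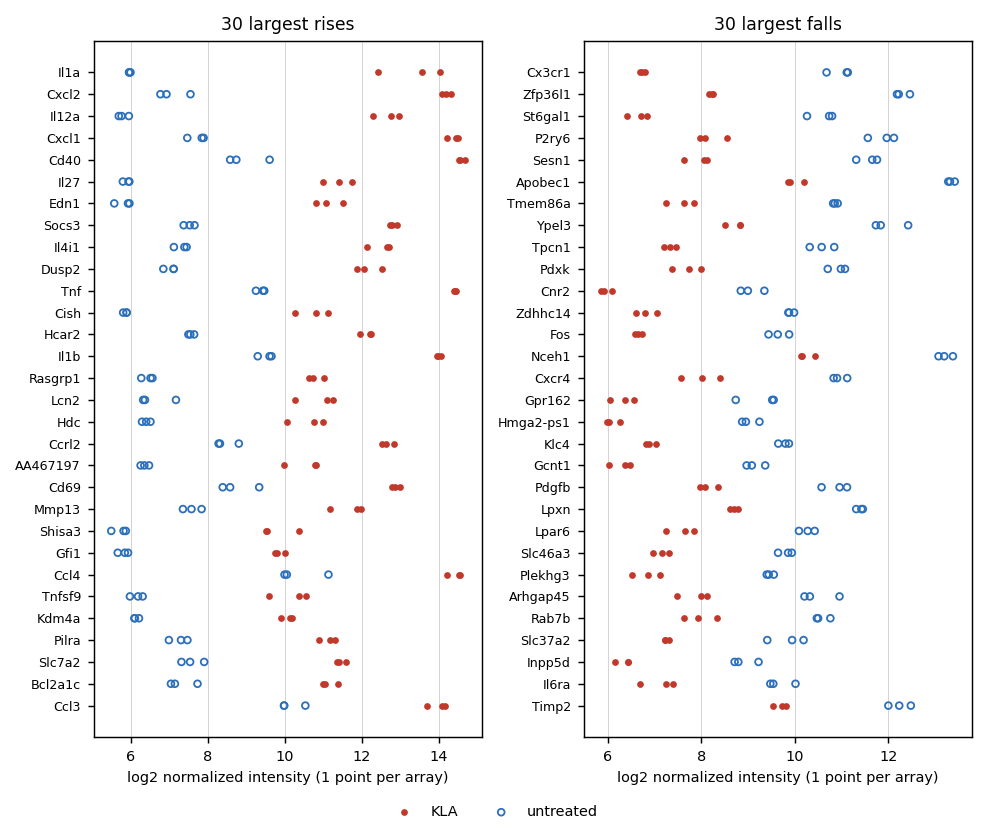
Log2 normalized intensity in each KLA array (filled red) and each untreated array (open blue) for the 30 genes with the largest rise (left) and the 30 with the largest fall (right), ordered by size of change. No gene shows overlap between its KLA and untreated points, and the genes were ranked on this difference. The KLA points of Cd40, Cxcl1, Cxcl2, Tnf and Ccl4 lie at 14.07 or above, and those of Cnr2 lie at 6.09 or below.

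The largest falls included a chemokine receptor, an RNA-binding protein and a glycan enzyme. Cx3cr1 measured 6.74, 6.79 and 6.68 with KLA and 11.11, 10.68 and 11.13 in untreated cells (-4.24 ± 0.17, adjusted p = 3.22e-08). Zfp36l1, which binds AU-rich elements and promotes mRNA decay, measured 8.16, 8.22 and 8.26 with KLA and 12.22, 12.19 and 12.46 in untreated cells (-4.08 ± 0.13). The standard deviation (SD) between KLA arrays was 0.06 for Cx3cr1 and 0.05 for Zfp36l1, and between untreated arrays it was 0.26 and 0.15. St6gal1, which adds terminal sialic acid to glycans, measured 6.42, 6.71 and 6.85 with KLA and 10.80, 10.26 and 10.73 in untreated cells (-3.94 ± 0.14). Apobec1, a cytidine deaminase that edits RNA, and Nceh1, a hydrolase of cholesteryl esters, were among the brightest of these genes and stayed well detected, Apobec1 at 9.86, 10.19 and 9.90 with KLA and 13.29, 13.42 and 13.32 in untreated cells, and Nceh1 at 10.13, 10.43 and 10.16 with KLA and 13.20, 13.08 and 13.38 in untreated cells. Inpp5d (-2.57 ± 0.17), which encodes the inositol phosphatase SHIP-1, Il6ra (-2.57 ± 0.18), the interleukin-6 receptor, Cxcr4 (-2.96 ± 0.21), the receptor of CXCL12, and Timp2 (-2.55 ± 0.13), an inhibitor of metalloproteinases, fell too. Pdcd4, a repressor of translation, fell by 2.29 ± 0.09, Il7r, the interleukin-7 receptor, by 2.06 ± 0.08 and the lysosomal beta-mannosidase gene Manba by 1.99 ± 0.08, and all 3 had adjusted p of 3.72e-08 or below.

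The receptor complex itself did not move as one. Tlr4 measured 8.46, 8.57 and 8.92 with KLA and 10.16, 10.16 and 10.21 in untreated cells (-1.53 ± 0.16, adjusted p = 2.7e-05), and Ly86, which encodes the MD-1 partner of the TLR4-like receptor RP105, fell by 1.47 ± 0.16. For Ly96, the gene of MD-2, the change was -0.02 ± 0.17 (adjusted p = 0.969). Cd14 rose by 0.61 ± 0.11. Downstream, the kinase gene Irak1 fell by 0.89 ± 0.12, while Irak2, which sustains late signalling, measured 11.62, 11.73 and 11.74 with KLA and 9.54, 9.57 and 9.68 in untreated cells (2.10 ± 0.09), and Irak3, an inhibitory family member, rose by 2.13 ± 0.17. Myd88, the adaptor gene, rose by 0.88 ± 0.11. Of 22 measured genes of the TLR4 complex and its adaptors 11 were called higher and 4 lower (4 and 4 with median centring), with a median change of 0.56 (0.00 with median centring).

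**Figure D4:**
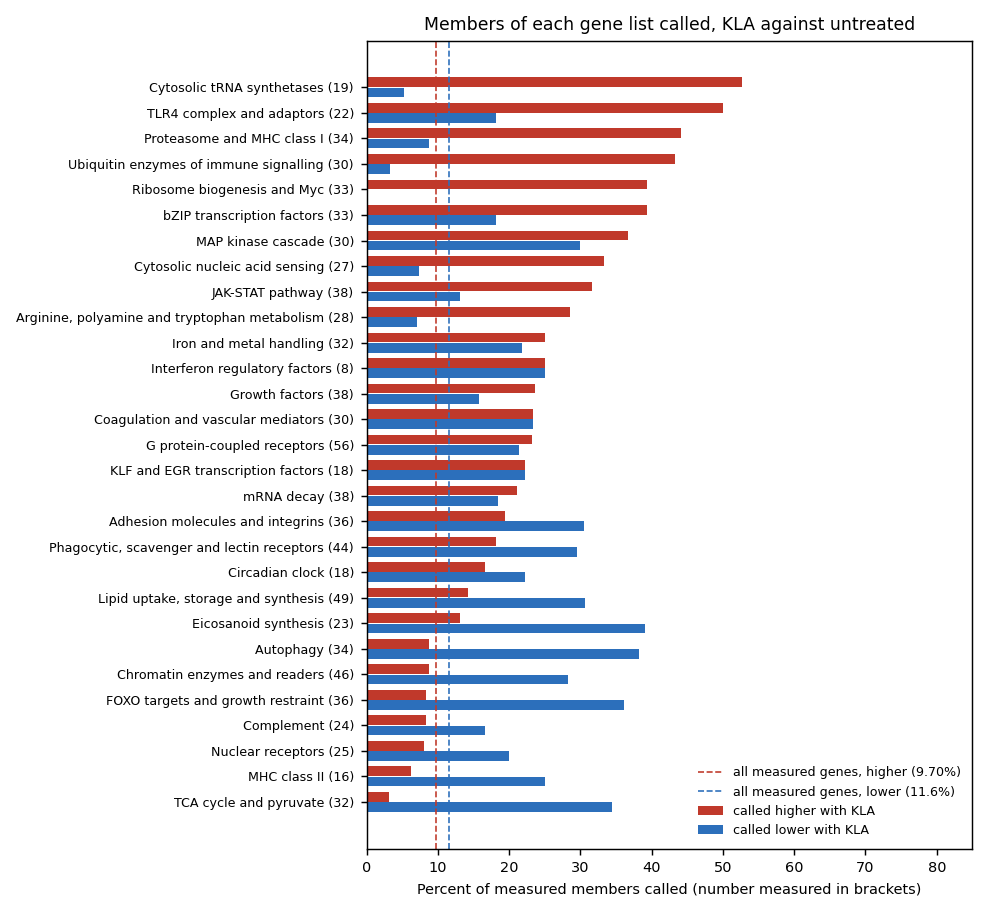
Percent of the measured members of each of 29 gene lists that were called higher (red bars) or lower (blue bars) with KLA, with the number of measured members in brackets. Dashed lines give the same shares over all 19057 measured genes, 9.70% higher and 11.6% lower. They are a low base, as most list members were detected and 47.1% of detected genes were called in either direction. The shares of higher members run down from cytosolic tRNA synthetases to the TCA cycle.

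MAP kinase genes moved both ways. These kinases relay the signal in 3-tier cascades and are switched off by dual-specificity phosphatases, which the Dusp genes encode. Dusp2 measured 12.52, 11.87 and 12.05 with KLA and 7.11, 7.11 and 6.85 in untreated cells (5.12 ± 0.28). Dusp16 measured 9.78, 9.74 and 9.70 with KLA and 7.44, 7.26 and 7.56 in untreated cells (2.32 ± 0.09), and Dusp5 rose by 1.69 ± 0.12. Another phosphatase gene, Dusp7, fell by 1.07 ± 0.23. Map3k8, the kinase TPL2 that opens the ERK branch, rose by 1.69 ± 0.10, whereas Map3k1 (-2.08 ± 0.15), the p38 gene Mapk14 (-1.55 ± 0.20) and Mknk2 (-2.54 ± 0.11), a kinase of the translation factor eIF4E, fell. Of 30 measured members 11 were called higher and 9 lower (4 and 13 with median centring), with a median of 0.17 (0.12 with bounds for undetected genes, and -0.23 with median centring).

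In the JAK-STAT pathway, which carries cytokine signals, the largest rises were of inhibitors. Socs3 measured 12.77, 12.74 and 12.92 with KLA and 7.37, 7.53 and 7.65 in untreated cells (5.29 ± 0.19). Cish, from the same family, measured 11.11, 10.25 and 10.80 with KLA and 5.89, 5.89 and 5.80 in untreated cells, below detection (at least 24.6-fold). The kinase gene Jak2 (2.24 ± 0.19), the transcription factor genes Stat5a (1.82 ± 0.14) and Stat3 (1.22 ± 0.14) and the phosphatase gene Ptpn2 (1.89 ± 0.10) rose as well. Of 38 measured members 12 were called higher and 5 lower (8 and 10 with median centring), with a median of 0.13 (-0.14 with median centring). The lower members numbered 3 without untreated replicate 2 or untreated replicate 3.

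Transcription factors of the bZIP family, which bind DNA as pairs through a leucine zipper, moved both ways. Fos measured 6.59, 6.72 and 6.63 with KLA and 9.44, 9.63 and 9.88 in untreated cells (8.01-fold lower, adjusted p = 2.8e-07), and no array of one group reached the other. Their relatives Batf, at 9.90, 9.47 and 9.13 with KLA and 6.66, 6.84 and 6.79 in untreated cells (2.74 ± 0.17), Batf2 (2.54 ± 0.17), Fosl2 (1.40 ± 0.10) and Junb (1.03 ± 0.19) rose, although Junb was not called with median centring. Of 33 measured bZIP genes 13 were called higher and 6 lower (5 and 8 with median centring), with a median of 0.04 (-0.02 with median centring), and the lower ones numbered 3 without KLA replicate 1. Among 8 interferon regulatory factors 2 rose and 2 fell (1 and 3 with median centring), with a median of 0.12 (-0.42 with median centring). Here 1 rose without KLA replicate 1, untreated replicate 2 or untreated replicate 3, and 1 fell without KLA replicate 2 or untreated replicate 1, while 3 fell without KLA replicate 3. Irf1 measured 13.23, 13.12 and 13.13 with KLA and 11.85, 11.55 and 11.44 in untreated cells (1.55 ± 0.13), and Irf8, which guides monocyte development, measured 7.61, 7.19 and 7.88 with KLA and 8.68, 9.08 and 9.12 in untreated cells (-1.40 ± 0.18).

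The zinc-finger KLF and EGR genes split evenly, with 4 of 18 higher and 4 lower (3 and 4 with median centring, medians 0.07 and 0.02). Klf7 measured 11.62, 11.78 and 11.62 with KLA and 9.01, 9.14 and 8.75 in untreated cells (2.71 ± 0.14). Klf2, a factor of quiescence, measured 6.55, 6.74 and 7.30 with KLA and 8.77, 8.75 and 8.94 in untreated cells (-1.95 ± 0.18). Neither pair of groups overlapped. Of 25 nuclear receptors, ligand-controlled factors, 2 rose and 5 fell (1 and 8 with median centring), with a median of -0.14 (0.00 with bounds, -0.13 with median centring), and 4 rose without KLA replicate 3. Over all measured genes 9.70% were called higher and 11.6% lower. The estrogen-related receptor gene Esrra (1.30 ± 0.23) was among the rises and the lipid sensor Pparg (-2.12 ± 0.15) among the falls. Of 18 clock genes 3 rose and 4 fell (0 and 8 with median centring), with a median of -0.09 (-0.05 with bounds, -0.51 with median centring), and the output factor Dbp fell by 2.23 ± 0.19. The count of clock genes that fell moved with single arrays, to 1 without KLA replicate 2 or untreated replicate 3 and 2 without KLA replicate 1 or untreated replicate 1, and it was 2 with the 6 arrays alone.

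Among chromatin enzymes, falls were more common than rises. Of 46 measured genes 4 were called higher and 13 lower (2 and 21 with median centring), with a median of -0.02 (-0.48 with median centring). The largest change was a rise of Kdm4a, a histone lysine demethylase, at 10.13, 9.90 and 10.19 with KLA and 6.09, 6.21 and 6.11 in untreated cells (3.93 ± 0.16). Kdm6b, the demethylase of histone H3 lysine 27, rose at least 3.15-fold and was undetected in untreated cells. The histone deacetylase gene Hdac5 (-2.52 ± 0.14), the remodeller Smarca2 (-1.81 ± 0.12) and the maintenance DNA methyltransferase Dnmt1 (-1.20 ± 0.15) fell.

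Genes of mRNA decay, which set how long inflammatory messages last, diverged. Zc3h12a, the endonuclease Regnase-1, measured 9.48, 9.63 and 9.76 with KLA and 6.44, 6.86 and 6.91 in untreated cells (2.89 ± 0.15), and Zfp36, which encodes tristetraprolin, measured 11.76, 11.85 and 12.14 with KLA and 11.01, 10.40 and 10.71 in untreated cells (1.21 ± 0.15). Their relatives Zfp36l1, described above, and Zc3h12d (at least 2.58-fold lower, undetected with KLA) fell. Of 38 measured members 8 were called higher and 7 lower (3 and 12 with median centring), with a median of 0.03 (-0.27 with median centring). The lower members numbered 3 without KLA replicate 1 or KLA replicate 2 and 4 without untreated replicate 1 or untreated replicate 3, and 4 with the 6 arrays alone.

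**Figure D5:**
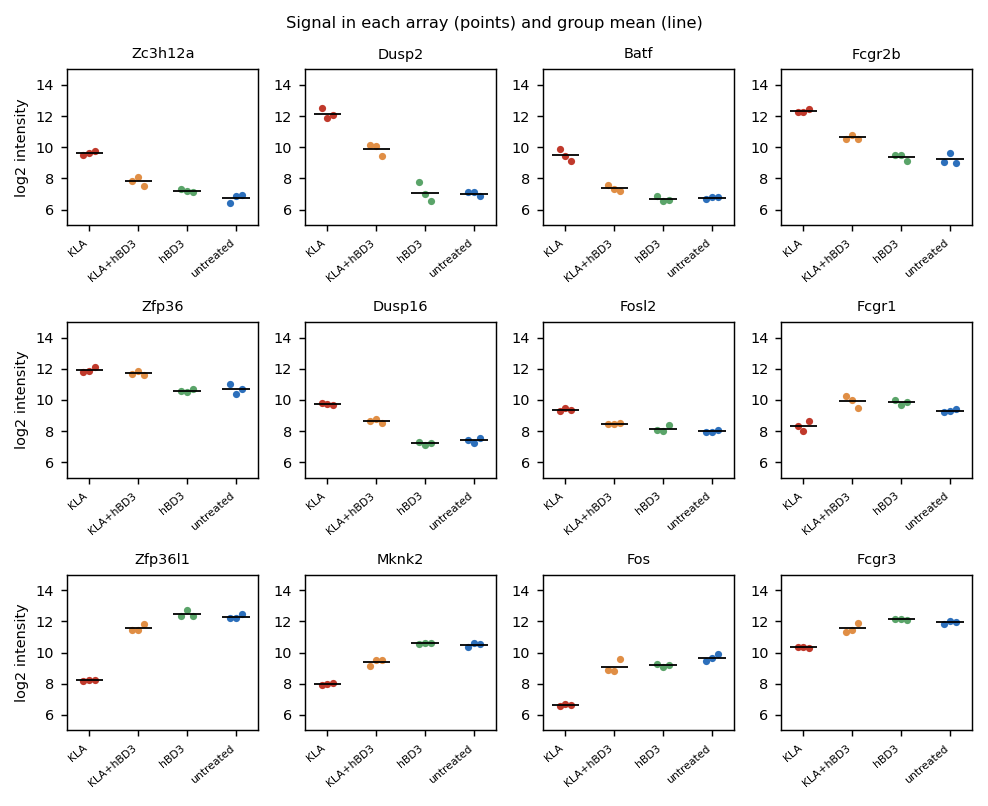
Log2 normalized intensity of 12 genes in the arrays of cells given KLA, KLA plus hBD3, hBD3 and no agent (points, 1 per array; lines, group means). Columns hold genes of mRNA decay, the MAP kinase cascade, bZIP factors and Fc receptors. Zfp36l1, Mknk2, Fos, Fcgr1 and Fcgr3 lie lower with KLA than in untreated cells, and the other 7 lie higher.

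Ubiquitin enzymes of immune signalling, which build or remove the chains on which NF-kB signalling is assembled, rose more often than they fell under quantile normalization but not under median centring. Of 30 measured genes 13 were called higher and 1 lower (6 and 6 with median centring), with a median of 0.22 (-0.10 with median centring). The 1 lower member was not called without KLA replicate 1, KLA replicate 2 or untreated replicate 3, and 2 were called lower without KLA replicate 3. The A20 gene Tnfaip3 measured 10.87, 10.62 and 11.20 with KLA and 8.54, 8.39 and 8.50 in untreated cells (2.42 ± 0.13), its partner Tnip1 rose by 1.25 ± 0.15. The ubiquitin-like modifier Isg15 (2.65 ± 0.29) and its protease Usp18 (1.88 ± 0.27) rose.

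G protein-coupled receptors, which read chemokines, lipids and metabolites, had large changes both ways. Of 56 measured genes 13 were called higher and 12 lower (10 and 17 with median centring), with a median of 0.03 (0.02 with median centring). Gpr84, a receptor for medium-chain fatty acids, measured 13.05, 13.15 and 13.03 with KLA and 10.65, 10.49 and 10.58 in untreated cells (2.50 ± 0.10), and Fpr2, a formyl peptide receptor, rose by 2.31 ± 0.16. Ccrl2 (4.18 ± 0.27), Gpr18 (2.85 ± 0.10) and the thrombin receptor gene F2r (2.90 ± 0.37) were also higher. The nucleotide receptor gene P2ry6 (-3.68 ± 0.21), the lysophosphatidic acid receptor gene Lpar6 (-2.69 ± 0.17) and the oxysterol receptor gene Gpr183 (-2.06 ± 0.17) fell. Cnr2, the cannabinoid receptor of immune cells, measured 5.85, 6.09 and 5.92 with KLA and 8.84, 9.35 and 8.99 in untreated cells (at least 6.58-fold lower, undetected with KLA).

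Receptors for particles and dying cells fell more often than they rose. Of 44 measured phagocytic, scavenger and lectin receptors 8 were called higher and 13 lower (3 and 15 with median centring), with a median of 0.01 (-0.24 with median centring), and 4 were called higher with the 6 arrays alone. Over all measured genes 9.70% were called higher and 11.6% lower. The Fc receptors for IgG parted. Fcgr2b, the inhibitory one, measured 12.23, 12.28 and 12.48 with KLA and 9.05, 9.65 and 8.99 in untreated cells (3.11 ± 0.16), whereas the activating Fcgr3 measured 10.35, 10.35 and 10.31 with KLA and 11.83, 12.04 and 11.94 in untreated cells (-1.60 ± 0.12), and Fcgr1 fell by 0.98 ± 0.18. Clec4e, the lectin Mincle that binds mycobacterial glycolipid, rose by 2.70 ± 0.39. Gas6, a bridge between dying cells and their receptors (-2.19 ± 0.15), and Cd93 (-1.52 ± 0.18) fell.

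Adhesion molecules, which hold cells to matrix and to each other, moved both ways. Vcam1 measured 10.66, 10.02 and 10.45 with KLA and 7.18, 6.65 and 6.65 in untreated cells (3.55 ± 0.21), and Icam1 (2.05 ± 0.14), the fibronectin receptor chain Itga5 (1.60 ± 0.13), Itgav (1.60 ± 0.15) and the hyaluronan receptor Cd44 (1.57 ± 0.17) rose. The common leukocyte integrin chain Itgb2 (-0.91 ± 0.14), Itgb5 (-1.49 ± 0.24) and the selectin ligand Selplg (-1.23 ± 0.12) fell. Of 36 measured genes 7 were called higher and 11 lower (5 and 13 with median centring), with a median of -0.12 (-0.08 with bounds, -0.42 with median centring).

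Genes of prostaglandin synthesis were called in both directions. Ptgs2, the inducible cyclooxygenase, rose at least 2.17-fold and was undetected in untreated cells, and Ptges, which makes prostaglandin E, measured 10.21, 10.35 and 9.43 with KLA and 6.50, 6.42 and 6.77 in untreated cells (3.43 ± 0.19). Hpgds, a synthase of prostaglandin D, fell by 1.22 ± 0.27 and Tbxas1, the thromboxane synthase, by 1.33 ± 0.15. The leukotriene helper gene Alox5ap fell by 2.18 ± 0.15. Of 23 measured eicosanoid genes 3 were called higher and 9 lower (3 and 13 with median centring), with a median of -0.23 (-0.03 with bounds, -0.53 with median centring).

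Of the measured growth factors 7 of 38 were gained, detected in all 3 KLA arrays and in 0 of 3 untreated arrays, as were 2 of 30 coagulation and vascular genes and 98 of all 19057 genes. Csf2, which encodes GM-CSF, rose at least 6.71-fold, Inhba, an activin chain, at least 6.65-fold and Csf1, which encodes M-CSF, at least 3.77-fold, and none of them was detected in untreated cells. Csf1 measured 8.19, 7.65 and 8.20 with KLA and 5.94, 5.96 and 5.88 in untreated cells. The gene of its receptor, Csf1r, measured 10.64, 11.05 and 11.09 with KLA and 12.68, 12.71 and 12.72 in untreated cells (-1.78 ± 0.13). Osm, the cytokine oncostatin M, rose by 2.64 ± 0.08, and Igf1, an insulin-like growth factor, fell by 0.60 ± 0.11. Of 38 measured growth factors 9 were called higher and 6 lower (10 and 7 with median centring), with a median of 0.10 (0.06 with median centring). Of 30 coagulation and vascular genes 7 rose and 7 fell (6 and 8 with median centring), with medians of 0.00 and 0.02 with bounds. The urokinase receptor gene Plaur (3.16 ± 0.15), coagulation factor F10 (2.92 ± 0.22) and the plasminogen activator inhibitor Serpinb2 (at least 3.35-fold) rose, and the growth factor chains Pdgfb (-2.75 ± 0.18) and Pdgfa (-1.60 ± 0.22) fell. Of 24 complement genes 2 were called higher and 4 lower (0 and 5 with median centring), near the 9.70% and 11.6% of all measured genes. Their medians were -0.03 and -0.04 with median centring. The subunit genes C1qa (-1.11 ± 0.33), C1qb (-1.09 ± 0.24) and C1qc (-1.43 ± 0.18) of the initiating complex fell. The call of C1qa was lost without KLA replicate 1 (adjusted p = 0.114), KLA replicate 3 (adjusted p = 0.107), untreated replicate 2 (adjusted p = 0.151) or untreated replicate 3 (adjusted p = 0.120), and also with neqc, another background correction and normalization in limma, (adjusted p = 0.0586) and with a trend and robust prior (adjusted p = 0.0749). Complement genes called lower numbered 2 without KLA replicate 1, KLA replicate 3, untreated replicate 2 or untreated replicate 3, and those called higher numbered 1 without any one of the untreated replicates. With neqc 1 was called higher and 2 lower.

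In amino acid metabolism, genes that feed nitric oxide synthesis were among the rises. Slc7a2, a cationic amino acid transporter, measured 11.57, 11.40 and 11.34 with KLA and 7.90, 7.31 and 7.54 in untreated cells (3.85 ± 0.16), and Gch1, which makes the cofactor of nitric oxide synthase, rose by 2.29 ± 0.13. The synthase gene Nos2 rose by 1.77 ± 0.34 (adjusted p = 0.00336), with an SD of 0.96 between KLA arrays and 0.20 between untreated arrays. Acod1, which makes itaconate, rose by 3.12 ± 0.47. Of 28 measured members 8 were called higher and 2 lower (5 and 3 with median centring, and 1 lower with the 6 arrays alone), with a median of 0.14 (0.02 with median centring).

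Iron genes were mixed, with 8 of 32 higher and 7 lower (4 and 13 with median centring) and a median of -0.03 (-0.18 with median centring). Lcn2, which binds bacterial siderophores, measured 10.26, 11.10 and 11.24 with KLA and 6.32, 6.37 and 7.17 in untreated cells (4.25 ± 0.27), and Cp, which encodes the ferroxidase ceruloplasmin, rose by 1.92 ± 0.16. The transferrin receptor gene Tfrc (-1.58 ± 0.21), the iron exporter gene Slc40a1 (-1.21 ± 0.12) and Hfe (-1.61 ± 0.24), a regulator of iron uptake, fell. Lipid genes fell more often, with 7 of 49 higher and 15 lower (3 and 25 with median centring, and 4 higher with the 6 arrays alone) and a median of -0.20 (-0.09 with bounds, -0.69 with median centring). The cholesterol exporter Abcg1 measured 7.78, 7.91 and 8.65 with KLA and 10.30, 10.15 and 10.34 in untreated cells (-2.15 ± 0.32), the lysosomal lipase gene Lipa fell by 1.58 ± 0.10 and the desaturase gene Fads1 by 1.95 ± 0.11. The fatty acid carrier gene Fabp3 rose by 2.28 ± 0.21.

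Genes of the TCA cycle, the mitochondrial oxidation of acetyl groups, were called lower more often than higher, with 1 of 32 higher and 11 lower (0 and 23 with median centring, 0 higher with the replicate number as a block, called the replicate block) and a median of -0.26 (-0.21 with bounds, -0.78 with median centring). The isocitrate dehydrogenase genes Idh1 (-1.55 ± 0.19) and Idh2 (-1.23 ± 0.21) fell. No TCA cycle gene was called higher without KLA replicate 1, KLA replicate 2, KLA replicate 3 or untreated replicate 2. Among autophagy genes, which serve the turnover of cell contents in lysosomes, 3 of 34 were higher and 13 lower (0 and 20 with median centring), with a median of -0.21 (-0.84 with median centring), and 1 was higher without KLA replicate 1 or KLA replicate 2. The initiating kinase gene Ulk1 (-1.18 ± 0.24) and the conjugation enzyme gene Atg7 (-1.01 ± 0.19) fell.

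FOXO factors restrain growth when growth factor signalling is low, and among their targets and related growth restraints falls were more common, with 3 of 36 higher and 13 lower (1 and 19 with median centring, 5 higher with the replicate block) and a median of -0.17 (-0.12 with bounds, -0.67 with median centring). Sesn1, a sensor that curbs mTORC1, measured 7.63, 8.05 and 8.12 with KLA and 11.31, 11.76 and 11.66 in untreated cells (-3.64 ± 0.15). The glucocorticoid-induced gene Tsc22d3 (-2.53 ± 0.21), the repressor Bcl6 (-2.06 ± 0.16) and the Myc antagonist Mxd4 (-1.81 ± 0.17) fell. The cell cycle inhibitor Cdkn1a went the other way, at 14.48, 14.28 and 14.11 with KLA and 11.78, 11.07 and 10.91 in untreated cells (3.03 ± 0.26).

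Genes of ribosome and protein production were called higher more often than lower under quantile normalization but not under median centring. Of 33 measured genes of ribosome biogenesis and Myc 13 were called higher and 0 lower (2 and 2 with median centring), with a median of 0.40 (-0.08 with median centring), and 1 was called lower without KLA replicate 3. The nucleolar genes Nop58 (1.28 ± 0.09) and Mybbp1a (1.44 ± 0.29) rose. Of 19 cytosolic tRNA synthetases 10 were higher and 1 lower (1 and 3 with median centring), with a median of 0.37 (0.02 with median centring). Wars, the tryptophan enzyme, rose by 1.41 ± 0.15 and Qars, the glutamine enzyme, fell by 0.74 ± 0.11.

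The 2 routes of antigen presentation differed in their counts. Of 34 genes of the proteasome and MHC class I, which show peptides from inside the cell, 15 were called higher and 3 lower (5 and 3 with median centring), with a median of 0.32 (0.31 with bounds, 0.05 with median centring). The transactivator Nlrc5 (1.88 ± 0.28), the transporter chain Tap2 (1.87 ± 0.16) and the proteasome activator Psme2 (1.21 ± 0.15) rose. Of 16 genes of MHC class II, which show peptides taken up from outside, 1 was higher and 4 lower (1 and 7 with median centring, 7 lower with the replicate block), with a median of -0.27 (-0.26 with bounds, -0.56 with median centring). The processing genes Ifi30 (-1.45 ± 0.16), H2-DMa (-1.36 ± 0.17) and Ctss (-1.22 ± 0.18) fell, and the class II chain H2-Ab1 had -0.14 ± 0.19 (adjusted p = 0.76). The difference between the 2 lists was not tested. Of 27 sensors of cytosolic nucleic acid 9 were higher and 2 lower (3 and 4 with median centring), with a median of 0.22 (-0.11 with median centring), and 1 was lower when any one of the KLA arrays, untreated replicate 2 or untreated replicate 3 was left out. The DNA sensor Cgas (1.06 ± 0.16) and the left-handed nucleic acid sensor Zbp1 (1.57 ± 0.24) rose, whereas Sting1 (-0.87 ± 0.13), the adaptor that acts after Cgas, fell. Cgas was not called with median centring.

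The spread between KLA arrays differed from gene to gene. The median SD between arrays was 0.23 with KLA and 0.19 in untreated cells for the 200 largest rises, 0.19 with KLA and 0.21 in untreated cells for the 200 largest falls, and 0.17 in both groups for all detected genes. Among the 200 largest rises, Cd274 had the smallest SD between KLA arrays and Tsc22d1 the largest, and both were chosen for that. Cd274, which encodes the inhibitory ligand PD-L1, measured 13.20, 13.20 and 13.21 with KLA and 10.31, 10.71 and 10.28 in untreated cells (2.77 ± 0.15). Tsc22d1, a transcription regulator, measured 11.27, 11.54 and 8.22 with KLA and 6.93, 7.31 and 6.66 in untreated cells (3.38 ± 0.68, adjusted p = 0.00434). KLA replicate 3 was the lowest KLA array for Tsc22d1, and it stayed above every untreated array.

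Beside the KLA arrays, cells given KLA plus hBD3 showed smaller changes of these 30 rises and 30 falls. The median change of the 30 genes with the largest rise was 4.29 with KLA, 2.58 with KLA plus hBD3 and 0.12 with hBD3 alone, and that of the 30 with the largest fall was -2.95, -0.99 and 0.08, each against untreated cells. In the contrast of KLA plus hBD3 with KLA, all 30 rises were lower and 24 were called, where 4.97% of all genes were called lower, and all 30 falls were higher and all were called, where 5.85% of all genes were called higher. The effect of KLA without hBD3 differed from its effect with hBD3 (the interaction term) in 21 of the 30 rises and 29 of the 30 falls, where 5.50% of all genes were called. These genes were ranked on KLA arrays that these contrasts share, so the counts describe them and do not test them. Zfp36l1 measured 11.43, 11.46 and 11.85 with KLA plus hBD3, against 12.22, 12.19 and 12.46 in untreated cells, so the groups did not overlap and KLA plus hBD3 minus untreated was -0.71. For Il1b the difference between KLA plus hBD3 and KLA was -0.68 (adjusted p = 0.628) and for Tnf -1.10 (adjusted p = 0.316). With hBD3 alone 0 of the 30 rises and 0 of the 30 falls were called against untreated cells in limma, where 0.00525% of all genes were called. In that contrast 12 of the 60 had an unadjusted p under 0.05. The share of all genes under that unadjusted threshold was not counted. The untreated arrays also ranked these genes, so the 12 are not read as an effect of hBD3.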

How the data were processed

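Macrophage RNA was hybridised to Illumina MouseWG-6 v2.0 BeadChips. The authors summarized probes in BeadStudio and deposited, for each array, an intensity without normalization with its detection p-value, and an intensity that was quantile normalized across the 12 arrays in R with beadarray. The normalized intensity was used here as log2. The headings of the values before normalization gave only a group, and called KLA lps, and after quantile normalization 12 of 12 columns matched an array of that group within 0.1% for every probe. limma 3.58.1 in R 4.3.3 fitted 4 group means (residual df 8, prior df 3.66), two-sided, with Benjamini-Hochberg adjustment over all 45281 probes, and was tested on simulated data. SE is that of limma. A probe named a gene where the platform annotation gave 1 gene (34885 probes, none for 10378, several for 18), and the brightest such probe stood for the gene. Which array lay on which BeadChip was not given in the sources used here, so chips could not be fitted as a block. With 3 arrays a group their number limits precision.

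Genes were named by rank of change (30 each way), adjusted p, spread between KLA arrays, gain or loss of detection, or membership of a list, up to 8 a list. The members of neighbouring runs were named after their values were seen. The gene lists and named genes were chosen with earlier results of these data known, and 1 list is not reported here. The titles number the replicates 1 to 3, and KLA and untreated arrays of the same number departed from their group means together (r = 0.4366, 0.3137 and 0.6672 over probes). For unlike numbers r was 0.2087 (KLA 1 with untreated 2) and 0.2562 (KLA 2 with untreated 1), and negative wherever replicate 3 met another. Replicate 3 thus stood apart, while replicates 1 and 2 were hardly separated, so pairing by number is not settled. A fit with the replicate number as a block was run as an alternative. Other alternatives were median centring, neqc, a filter on detection, 6 arrays only, an intensity trend with a robust prior, the mean of detected probes of a gene, KLA replicate 1 alone, each array left out, a looser detection threshold and other letters for the NF-kB motif.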

Additional observations from a re-analysis of the deposited data

Results flagged for a closer look

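The change with KLA differed with and without hBD3, by the interaction term of the limma fit at an adjusted p under 0.05, in 21 of the 30 genes with the largest rise and in 29 of the 30 with the largest fall. The KLA arrays that ranked these genes also enter this term, so the counts are a description.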

How the results depend on the processing

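Of 6717 called probes (3095 higher, 3622 lower), leaving out 1 array of KLA or untreated cells gave 5665 to 6669 called, 2601 to 3018 higher and 2885 to 3651 lower, and of 4051 called genes it gave 3474 to 3951. Median centring gave 1274 higher and 7235 lower. When only replicate 1 stood for KLA, the lone array being assumed to vary like the others, 4380 were called, 2063 higher and 2317 lower. With the replicate block 7823 were called and no named gene lost its call. These settings were chosen after seeing the data, the replicate block with 6 arrays (7572 called) and leaving out replicate 3 of KLA, untreated and hBD3 cells (7109 called). No called named gene reversed in direction under the settings run. Of 181 named genes, 8 lost their call with median centring (Batf3, Cgas, Gbp7, Gm12250, Junb, S100a8, Sp100 and Sp140), 8 with KLA replicate 1 alone (C1qa, Cd14, Esrra, Hpgds, Itgb2, Junb, Mybbp1a and S100a8), 2 with the mean of detected probes (Sp100 and Usp18) and 1 (C1qa) with neqc and with a trend and robust prior. Members of the 29 lists called numbered 402 of 888 (45.3%, where 21.3% of all measured genes were called), or 387 of 646 detected members (59.9%, where 47.1% of detected genes were called), and 349 to 404 with 1 array left out. Of 74 counts of higher or lower list members, 4 to 9 moved by over 1.5 times with 1 array left out, 25 with KLA replicate 1 alone and 38 with median centring. The share of promoters with the NF-kB consensus moved with its letters, to 5.81% (1 letter stricter) and 27.0% (1 letter looser) of genes at least 2-fold higher, 2.51% and 21.9% of those lower and 2.84% and 17.3% of all measured genes. With 3 arrays in each group, their number limits the precision, and signals near background give bounds only.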

Other observations

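Among genes that lie next to each other on a chromosome in the RefSeq annotation, counted over measured genes, 6 runs of at least 3 called and detected genes rose by 1 or more on the log2 scale and 4 such runs fell. The longest was the row of guanylate-binding protein genes, GTPases of cell-autonomous defence, with Gbp5 at 3.58, Gbp7 at 1.35, Gbp3 at 2.53, Gbp2b at 1.58 and Gbp2 at 1.77. Related genes also made up the run of immunity-related GTPases Gm12250 (1.34), Igtp (1.49) and Irgm2 (1.71) and that of Sp140 (1.67), Sp100 (1.21) and A630001G21Rik (1.28). With median centring Gbp7, Gm12250, Sp140 and Sp100 were not called. How many runs would arise by chance was not tested.

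A run of 4 genes with no shared family held Ipo13 (1.18), an importin, Artn (at least 3.4-fold), a neurotrophic factor undetected in untreated cells, the sialyltransferase gene St3gal3 (3.07) and Kdm4a (3.93). Hyi, beside the run, had a change of -1.03. The 3 probes of Kdm4a gave changes of 3.93, 2.87 and 0.80, and the last was not called (adjusted p = 0.13). A second run of unrelated genes held Stk40 (2.79), Eva1b (2.35) and Sh3d21 (at least 4.44-fold, undetected in untreated cells).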
